A study of Mus musculus with 2 samples.

Results

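Long intergenic noncoding RNAs (lincRNAs) are transcripts without a long open reading frame whose genes lie between coding genes. The 4505 lincRNA genes described here were all autosomal genes of type lincRNA in GENCODE release M21 whose most 5′ transcription start site (TSS) lay over 5 kb from every TSS of a protein-coding gene, out of 51229 autosomal genes of all types. The annotation held 5209 autosomal lincRNA genes, and the 704 closer to a coding TSS were set aside. A promoter was called open when each replicate had a DNase-seq peak within 1 kb of that TSS in either direction, and the highest peak value found there in a replicate is called its promoter signal.

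DNase I hypersensitive sites are the stretches of chromatin that a nuclease cuts readily. The study profiled them in kidney tissue of B6NCrl mice on the day of birth (age 0 day). It held 1 group of 2 replicates and no other tissue, age, genotype or treatment, and the sex of the animals was not recorded. The labels number the libraries as biological replicates but tie both to a shared donor record, so differences between them may be technical. Kidney tissue of this age mixes nephron progenitors, tubules, stroma, vessels and blood. A low signal from all cells cannot be told apart from a high signal in a few.

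Many lincRNAs are transcribed by RNA polymerase II from promoters that resemble those of coding genes, and many others start at enhancers. Some are structural parts of nuclear bodies, some host small nucleolar RNAs or microRNAs in their introns, and others act on the gene next door. As a class they are known for weak, tissue-restricted expression, and few have a known role in the kidney.

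The lists held 266133 peaks in replicate 1 and 257133 in replicate 2, of which 262093 and 253163 were autosomal. Sequencing depth is unknown, and the signal is the authors' own value per peak, in a unit not given in the sources used here, with a median of 17.1 over all peaks of replicate 1 and 16.9 over those of replicate 2. The kidney identity genes Six2, Pax2, Pax8, Wt1, Lhx1, Foxd1 and Nphs1 each had an open promoter, with mean signals from 15.7 for the podocyte gene Nphs1 to 116 for Wt1.

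The sequences of 9 promoter peaks are examples of the DNA behind these values, and their choice does not show how frequent a motif is. They are 150 bp each, from the plus strand of GRCm38 (mm10), with exact motif matches in capitals. They run from the strongest promoters of all, through lincRNAs whose nearest coding gene is a kidney regulator, to promoters of well-known lincRNAs.
AY036118 and Gm42418, chr17:39847721-39847870: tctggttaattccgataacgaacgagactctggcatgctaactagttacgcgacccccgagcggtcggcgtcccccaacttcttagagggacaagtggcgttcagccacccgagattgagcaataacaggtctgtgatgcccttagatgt
Gm6410, chr8:4677841-4677990: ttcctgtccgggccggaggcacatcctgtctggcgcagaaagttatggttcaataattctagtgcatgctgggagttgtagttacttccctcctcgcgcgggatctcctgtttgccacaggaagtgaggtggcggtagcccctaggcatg
1700096K18Rik, chr5:25529641-25529790: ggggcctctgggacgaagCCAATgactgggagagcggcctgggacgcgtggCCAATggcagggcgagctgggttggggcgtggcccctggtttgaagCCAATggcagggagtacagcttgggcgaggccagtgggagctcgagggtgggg
Gm44946, chr7:70346381-70346530: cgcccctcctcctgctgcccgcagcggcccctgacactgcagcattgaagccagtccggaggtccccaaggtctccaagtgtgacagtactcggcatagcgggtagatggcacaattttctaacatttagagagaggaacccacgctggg
Gm15221, chr14:46436641-46436790: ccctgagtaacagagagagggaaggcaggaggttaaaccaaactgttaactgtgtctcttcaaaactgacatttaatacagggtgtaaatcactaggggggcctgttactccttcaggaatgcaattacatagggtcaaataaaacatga
1600027J07Rik, chr8:103347561-103347710: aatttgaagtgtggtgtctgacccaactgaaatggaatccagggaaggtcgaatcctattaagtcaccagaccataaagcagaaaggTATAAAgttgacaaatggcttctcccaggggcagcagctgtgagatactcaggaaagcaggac
Tbx3os2, chr5:119691241-119691390: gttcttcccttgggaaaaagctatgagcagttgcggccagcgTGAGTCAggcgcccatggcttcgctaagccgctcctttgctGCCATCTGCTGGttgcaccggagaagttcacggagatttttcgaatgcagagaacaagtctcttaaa
Meg3, chr12:109540801-109540950: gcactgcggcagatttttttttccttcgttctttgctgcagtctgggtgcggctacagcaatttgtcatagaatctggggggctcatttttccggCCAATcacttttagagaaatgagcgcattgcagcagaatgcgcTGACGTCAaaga
Pvt1, chr15:62037921-62038070: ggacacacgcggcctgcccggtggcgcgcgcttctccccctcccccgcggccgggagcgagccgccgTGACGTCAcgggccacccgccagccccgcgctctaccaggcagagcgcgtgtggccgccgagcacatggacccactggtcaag

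The capitals in the 1700096K18Rik peak are 3 CCAAT boxes (CCAAT, the letters bound by the factor NF-Y). In the 1600027J07Rik peak they are a TATA box. The Tbx3os2 peak holds an AP-1 match followed by a match to the insulator factor CTCF on the minus strand. The Meg3 peak holds a CCAAT box and a cAMP response element (CRE), and the Pvt1 peak a CRE. No match to the 13 motifs searched was found in the peaks of AY036118, Gm6410, Gm44946 and Gm15221. CpG dinucleotides numbered 21 in the Pvt1 peak, whose GC content was 76.7%, and 0 in the Gm15221 peak, whose GC content was 42%.

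Of the 4505 lincRNA promoters, 1448 were open, which was 32.1% (95% exact binomial interval 30.8 to 33.5%, counting error only). Among the 20807 autosomal protein-coding genes 14420 were open, or 69.3%, and among all autosomal genes 41.9%. A peak was present at 35.8% of lincRNA promoters in replicate 1 and at 35.6% in replicate 2 (35.7% ± 0.126, SD, n = 2). The lincRNA share minus the coding share was -34.6 percentage points in replicate 1 and -35.0 in replicate 2, with an SD of 0.282 points. Replicate 1 alone had a peak at 166 lincRNA promoters and replicate 2 alone at 158, while 2733 (60.7%) had a peak in neither.

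The share at lincRNA promoters was 2.93 times that of tiles of the same width (2001 bp) with no annotated TSS and over 5 kb from coding TSSs, of which 11.0% held a peak of both replicates. It was close to that of the other long noncoding biotypes at the same distance from coding genes, 33.2% of 1930. Genes of type TEC (to be experimentally tested) over 5 kb away were open in 19.6% of 2423 cases and processed pseudogenes in 6.82% of 7949. Coding genes over 5 kb from any other coding TSS were open in 64.9% of 16054 cases. Of the 704 lincRNAs set aside for lying within 5 kb of a coding TSS, 65.8% had a peak of both replicates, and at this distance the windows of a lincRNA and its coding neighbour can overlap.

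**Figure D1:**
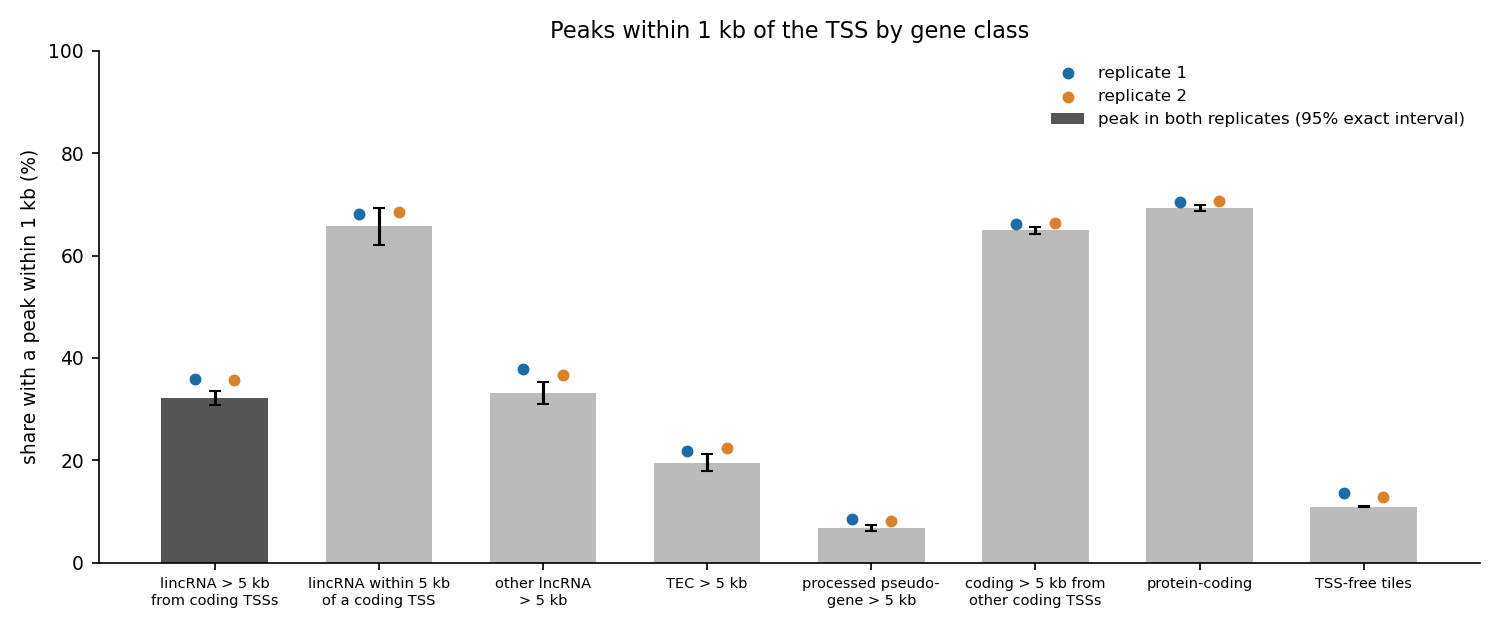
Share of genes or tiles (y axis, %) with a DNase-seq peak within 1 kb of the most 5′ TSS (for tiles, anywhere in the tile), by class (x axis). Bars are the share with a peak in both replicates with its 95% exact binomial interval, and points are the share in each replicate: lincRNAs over 5 kb from coding TSSs stand at 32.1%, against 69.3% for protein-coding genes and 11.0% for TSS-free tiles.

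The open share varied with the distance from coding genes. It was 42.2% for the 296 lincRNAs at 5 to 10 kb from the nearest coding TSS (36.5 to 48.1%), 36.8% at 10 to 20 kb, 38.9% at 20 to 50 kb, 33.1% at 50 to 100 kb, 31.2% at 100 to 200 kb and 20.5% for the 1031 at over 200 kb (18.04 to 23.1%). The 161 lincRNAs that start inside a coding gene were open in 34.2% of cases, close to the 32.1% of those outside. Chromosome 17 had the highest share, 45.7% of 199 (38.7 to 52.9%), and chromosome 8 the lowest, 24.8% of 306 (20.1 to 30.1%). Coding genes went the other way on these chromosomes, with 66.4% open on chromosome 17 and 75.8% on chromosome 8. Another gene's TSS lay within 1 kb of 361 lincRNA TSSs, of which 39.6% were open, against 31.5% of the other 4144.

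RefSeq places an mRNA start within 1 kb of 89 of the lincRNA TSSs, although GENCODE M21 has no coding TSS there. Of those 89, 48.3% were open, against 31.8% of the 4376 with no RefSeq mRNA start within 5 kb.

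Genes with more annotated starts were open more often, 50% of 154 lincRNAs with 4 or more TSSs against 30.3% of 3565 with 1 TSS. The 224 lincRNAs of 1 exon were open in 26.3% of cases, with a median promoter signal of 41.5 in replicate 1 and 49.4 in replicate 2, above the 27.7 and 26.5 of all open lincRNAs. Repeats covered over 50% of the 201 bp around the TSS in 664 lincRNAs (14.7%), against 2.87% of coding genes. Of these 664, 11.9% were open (9.53 to 14.6%), against 35.6% of the other 3841. The reads were 36 nt long, per the file headers, and the part that mapping to repeats has in this difference was not tested.

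Where a lincRNA promoter was open, the strongest peak lay less tightly at the TSS than in coding genes. The median distance from its centre to the TSS was 302.5 bp for lincRNAs in replicate 1 and 290 bp in replicate 2, and for coding genes it was 85.5 and 84.5 bp. Within 100 bp of the TSS lay 26.3% and 27.3% of the strongest lincRNA peaks, against 54.8% and 55.0% of the coding ones. Beyond 500 bp lay 33.4% and 33.1% of the lincRNA peaks, against 13.6% and 13.7% of the coding ones. The fullest 100-bp bin was the same in both classes, the 100 bp just upstream of the TSS, with 18.5% and 19.3% of the lincRNA peaks against 40.7% and 41.6% of the coding ones. An open lincRNA window held 1.77 peaks on average in each replicate, against 2.55 and 2.58 for coding windows.

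**Figure D2:**
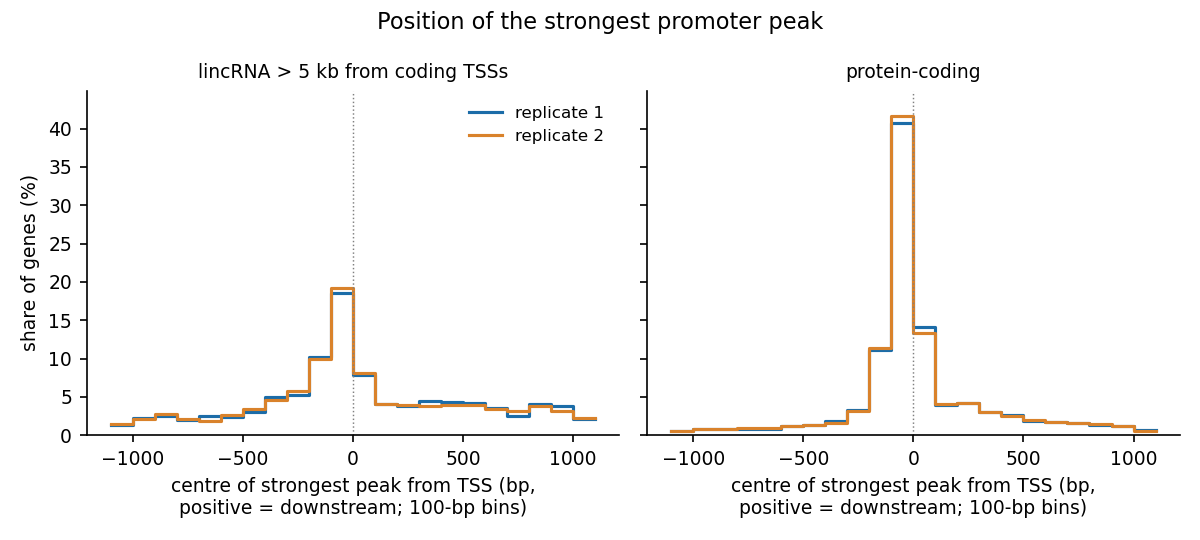
Position of the strongest peak's centre relative to the TSS (x axis, bp, positive downstream, bins of 100 bp) as a share of open genes (y axis, %), for lincRNAs (left) and protein-coding genes (right), with a line per replicate. The bin just upstream of the TSS holds 18.5% and 19.3% of lincRNA peaks, against 40.7% and 41.6% of coding peaks, and the lincRNA profile keeps broader flanks.

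Open and closed lincRNA promoters differed in CpG content. The observed over expected CpG ratio (500 bp to each side of the TSS) had a median of 0.277 in open lincRNA promoters, 0.189 in those with a peak in neither replicate and 0.568 in coding promoters. Cut at the quintiles of coding promoters, 37.3% of lincRNA promoters fell in the lowest and 51.1% in the next, which by construction hold equal numbers of coding promoters.

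Within the middle quintile 54.7% of 428 lincRNA promoters were open, against 90.9% of coding promoters. In the 2 highest quintiles the lincRNA shares were 79.4% of 63 and 87.9% of 33, against 97.7% and 99.1% of coding promoters. In the second quintile they were 36.6% of 2302 against 46.3%. The lowest quintile went the other way, 17.5% of 1679 lincRNA promoters (15.7 to 19.4%) against 12.5% of 4162 coding promoters (11.5 to 13.6%). That quintile held 1282 olfactory, vomeronasal, taste and trace amine receptor genes, and without them the coding share was 17.8%, so the difference of 4.93 points became -0.327. It was also -0.990 when any annotated TSS of a gene counted.

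Coding genes weighted to the CpG make-up of the lincRNAs were open in 39.1% of cases. The lincRNA share of 32.1% minus that weighted share was -6.93 points, against -37.2 without the weights. The weighted share keeps the chemoreceptor genes. Without them the coding shares would be higher in the lowest quintile (17.8% against 12.5%) and in the second (48.8% against 46.3%). A weighted share without them was not computed. With peaks counted in each replicate alone, the weighted coding shares were 41.3% in replicate 1 and 41.6% in replicate 2. The difference was then -5.43 points in replicate 1 and -5.97 in replicate 2, and without the weights it was -34.6 and -35.0.

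**Figure D3:**
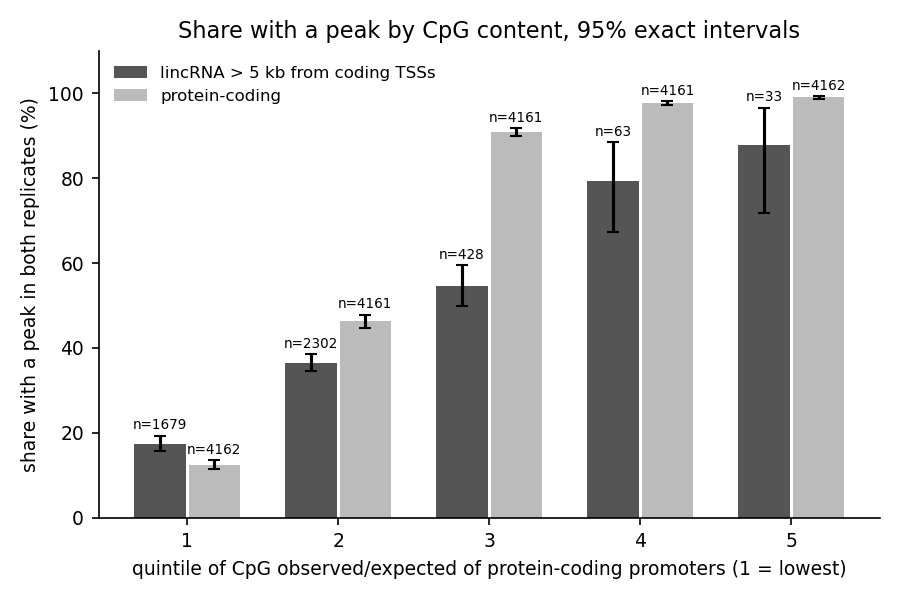
Share of promoters open in both replicates (y axis, %) by quintile of the CpG observed over expected ratio, with quintile edges taken from protein-coding promoters (x axis, lowest to highest), for lincRNAs and protein-coding genes; error bars are 95% exact binomial intervals. Both classes climb with CpG content, lincRNAs between 17.5% and 87.9% and coding genes between 12.5% and 99.1%.

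Open lincRNA promoters had a lower median signal than open coding ones. Replicate 1 gave the lincRNA promoters a median signal of 27.7 and replicate 2 one of 26.5. The medians were 94.98 and 104 at open coding promoters, and 20.8 and 19.3 for the strongest peak of TSS-free tiles that held peaks of both replicates. The middle 50% of lincRNA signals ran from 16.3 to 51.4 in replicate 1 and from 15.8 to 52.0 in replicate 2. In the top 10% of all peaks of their list stood 20.99% and 20.4% of lincRNA promoters, against 68.5% and 68.7% of coding ones. A signal over 100 was reached by 103 lincRNA promoters in replicate 1 and 112 in replicate 2. Promoters with a peak in 1 replicate only were weaker still, with medians of 10.9 in replicate 1 and 11.0 in replicate 2 and highest values of 28.5 (Gm45866) and 37.4 (Gm32585).

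The replicates ranked the open lincRNA promoters alike, with a Spearman correlation across genes of 0.934 for lincRNAs and 0.986 for coding genes; genes are not independent replicates. The strongest peaks of both replicates overlapped at 1296 lincRNA promoters (89.5%). After centring on the median ratio, 14 of 1448 lincRNA promoters differed by more than 2-fold between replicates (0.967%), against 0.160% of coding promoters. The log2 ratios of replicate 1 over replicate 2 had an SD of 0.351 for lincRNAs and 0.236 for coding genes. The 1448 open promoters rested on 1409 distinct strongest peaks of replicate 1, since 77 lincRNAs shared a peak with another.

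**Figure D4:**
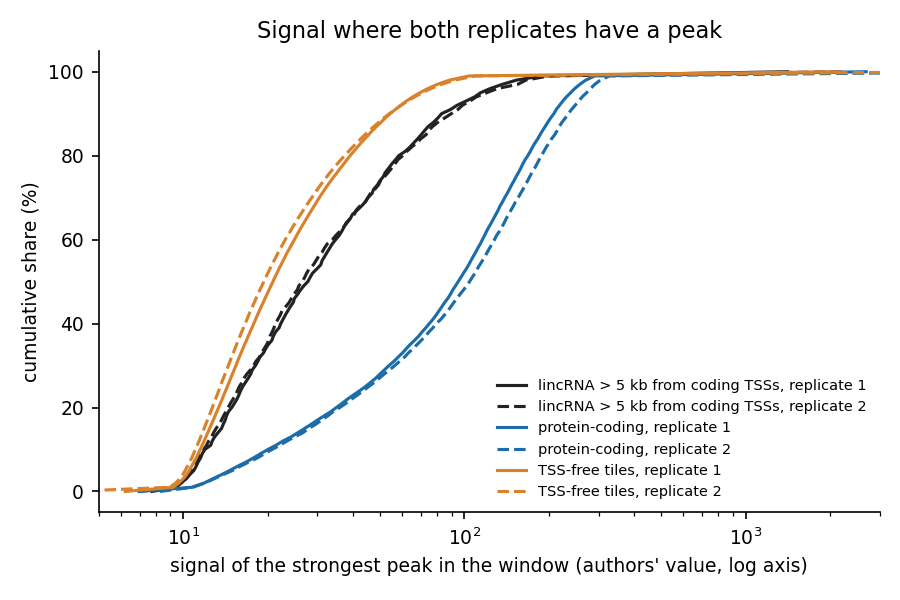
Cumulative share (y axis, %) of open lincRNAs, open protein-coding genes and TSS-free tiles with a peak of both replicates, by the signal of the strongest peak (x axis, the authors' value, log axis), with a solid line for replicate 1 and a dashed line for replicate 2. The lincRNA medians of 27.7 and 26.5 sit well below the coding medians of 94.98 and 104 and above the tile medians of 20.8 and 19.3.

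The strongest peaks of open lincRNAs were poorer in the letters of coding promoters. A GC box (GGGCGG, bound by the factor Sp1) was found in the central 150 bp of 12.5% of 1409 distinct lincRNA peaks, against 51.0% of coding peaks and 4.83% of tile peaks. An ETS match (CCGGAAGT) was found in 1.06% of lincRNA peaks, against 5.73% of coding and 0.354% of tile peaks, and an NRF1 match in 0.142% (2 peaks, 0.0172 to 0.512%), against 1.42% and 0.0384%. The CRE (TGACGTCA), seen in the Meg3 and Pvt1 peaks above, was found in 0.852% of lincRNA peaks, against 2.60% of coding and 0.281% of tile peaks. YY1 (AANATGGCG) was found in 0.284% (0.0774 to 0.725%), against 2.39% and 0.173%. The CCAAT box was found in 17.96% (15.98 to 20.1%), against 27.5% and 16.2%. RFX was found in 1.49% (0.925 to 2.27%), against 1.84% and 0.794%. For the GC box, ETS and the CRE the lincRNA interval lay between the tile and coding shares and held neither. For NRF1, YY1 and the CCAAT box the interval held the tile share, and for RFX the coding share.

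AP-1, TEAD, CTCF and the TATA box were least frequent in coding peaks. AP-1 (TGANTCA) was found in 7.74% of lincRNA peaks (6.39 to 9.26%), against 2.41% of coding and 6.96% of tile peaks, and TEAD (ACATTCC) in 4.90% (3.83 to 6.16%), against 1.61% and 5.24%. CTCF was found in 5.68%, against 3.27% and 7.31%, and the TATA box (TATAAA) in 7.03%, against 2.70% and 9.76%. HNF4 (CAAAGTCCA), the motif of a factor of kidney tubules, was rare, with 0.284% of lincRNA peaks (0.0774 to 0.725%), against 0.183% of coding and 0.342% of tile peaks. All motifs were searched on both strands, matches of different motifs may overlap, and a match is letters in a window, not a bound site.

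The make-up changed with distance from the TSS. GC boxes were found in 17.3% of the 376 lincRNA peaks centred within 100 bp of the TSS (13.6 to 21.5%), in 12.6% of the 562 at 100 to 500 bp and in 8.49% of the 471 beyond 500 bp (6.14 to 11.4%). CTCF matches were found in 3.72% (2.05 to 6.17%), 5.34% and 7.64% (5.41 to 10.4%) of these peaks, and the intervals overlap. Signals were higher with a CTCF match, with medians of 52.1 and 58.6 in replicates 1 and 2 over the 80 peaks with one, against 25.8 and 24.9 over the rest. The 176 with a GC box had medians of 47.4 and 50.3, against 25.7 and 24.6 without. Of these 176, 23.9% belonged to promoters in the 2 highest CpG quintiles, against 2.76% of the rest. Their median distance from the TSS was 200 bp, against 315.5 bp. The part of CpG content and position in the signal difference was not tested.

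The 3 strongest lincRNA promoters lay together on chromosome 17, at or beside ribosomal RNA sequence. AY036118 and Gm42418 shared a peak with signals of 1410.2 in replicate 1 and 2208 in replicate 2, and Gm26917 had 1282 and 1914. For Gm42418 this peak lay 837.5 bp from the TSS, and its mean signal was 1162 with a window of 500 bp, against 1809 with 1 kb. The shared peak, printed first above, lay inside what RefSeq annotates as Rn18s-rs5, an 18S ribosomal RNA pseudogene at chr17:39846354-39848202. The Gm26917 peak lay upstream of it, at chr17:39843341-39843490, with no RefSeq gene over it. The part that reads from other copies of ribosomal DNA have in these signals was not tested. Without these 3 the highest lincRNA signals were 263 and 302, and the medians were 27.7 and 26.4.

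Next in rank came genes known only by model or clone names. Gm6410 on chromosome 8 had signals of 263 in replicate 1 and 302 in replicate 2, at 52622 bp from Zfp958, the nearest coding gene. Here and below, distances to a coding gene are to the closest of its annotated TSSs, while its own peaks are those at its most 5′ TSS. The peak of 1700096K18Rik on chromosome 5, with its 3 CCAAT boxes, had 249 and 302 although the nearest coding gene, Cct8l1, was not open. Gm11527 had 249 and 292, and its peak overlapped the start of the noncoding gene 4833417C18Rik. AC132957.1 had 244 and 268, and its peak lay inside the RefSeq gene for Pdzd7, a scaffold protein of hair cell stereocilia, with an mRNA start 208 bp from the lincRNA TSS.

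A230028O05Rik, at 214464 bp from the LIM protein gene Lpp, had 256.5 and 239. Gm4262 had 224 and 249.8 near Litaf, a gene of endosomal sorting that was itself open at 202 and 215. The others of the 12 strongest were 5430416N02Rik near the COPII coat gene Sec31a (219 and 248), Gm10010 near the tetraspanin gene Tspan9 (218 and 234) and Gm33195 at 79484 bp from Cd83, an immune surface protein gene (217 and 234). In each of these 12 promoters both replicates stood in the top 1% of their own list.

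Of a list of 100 lncRNA names compiled from general knowledge, 77 were annotated and 25 were among the lincRNAs described here. Of the 25, 20 were open (80%), against 32.1% of all 4505, 1 had a peak in 1 replicate and 4 had none. The list was compiled with earlier results of these data known. Most of the 25 had more than 1 annotated TSS, and lincRNAs with 4 or more TSSs were open in 50% of cases. The part of this in the 80% was not tested. Host genes and structural RNAs were among the stronger of the 25. Snhg6, host of a small nucleolar RNA, had signals of 188 in replicate 1 and 196 in replicate 2, with its peak 57.5 bp from the TSS. Snhg12, of the same kind, had 154 and 156, and Snhg20 had 92.7 and 101.5. Malat1, the abundant RNA of nuclear speckles, had 157 and 201 at a peak 963.5 bp upstream of the annotated most 5′ TSS. Neat1, the scaffold of paraspeckles, had 125 and 152. All of these had higher signals in replicate 2, as open coding promoters did by their medians (94.98 and 104).

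Developmental lincRNAs covered the same range. Carmn, a lincRNA of cardiac mesoderm and smooth muscle, had 147 and 149, and Bvht, required for cardiac commitment of mouse embryonic stem cells, had 78.6 and 82.2 on the same chromosome, 18. Dubr, known from muscle differentiation, had 135 and 162 at 22.5 bp from its TSS. Lncenc1, known from embryonic stem cells, had 125 and 103. Mir17hg, host of the growth-promoting miR-17 cluster, had 72.1 and 84.9, and Halr1, beside the Hoxa genes, had 47.4 and 45.7. Several of these values rested on peaks toward the edge of the window. With a window of 500 bp the mean signal of both replicates was 80.7 for Carmn, 50.8 for Lncenc1, 33.9 for Mir17hg and 28.7 for Halr1, against 148, 114, 78.5 and 46.6 with 1 kb, and Mir17hg had 126 with 2 kb.

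The imprinted genes H19 and Meg3 and the neighbours of growth regulators were of middling signal. H19, the maternally expressed RNA beside Igf2, had 31.2 and 34.1, and Meg3, the maternally expressed RNA of the Dlk1 locus, had 26.9 and 23.3. Pvt1, whose TSS lay 50564 bp from the closest TSS of the proto-oncogene Myc, had 26.1 and 40.9 at a peak centred 9.5 bp from the TSS. Myc itself had 185 and 202. Lncpint, a p53-induced RNA, had 26.5 and 40.6, and Trp53cor1, the p53 target beside Cdkn1a, had 29.8 and 22, with a mean of 25.9 that became 40.1 with a window of 2 kb. Mir155hg, host of the immune microRNA miR-155, had 30.3 and 45.9.

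Hosts of neuronal microRNAs were at the bottom. Mir9-3hg had 21.3 and 16.2, Mir124a-1hg had 10.3 and 11.7, and Miat, an RNA of neural and retinal cells, had 9.17 and 12.6. Lncbate1, a regulator of brown fat, had a peak of 11.2 in replicate 2 and none in replicate 1. No peak was found for Hotair of the Hoxc cluster, Mirg of the imprinted Dlk1 locus, Platr4 of pluripotent cells or Rmst of neurogenesis. Hotair's nearest coding gene, Hoxc11, was open at 29.4 and 30.2, 6697 bp away. With a window of 500 bp to each side, Snhg20, Mir9-3hg and Miat were not open in both replicates.

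**Figure D5:**
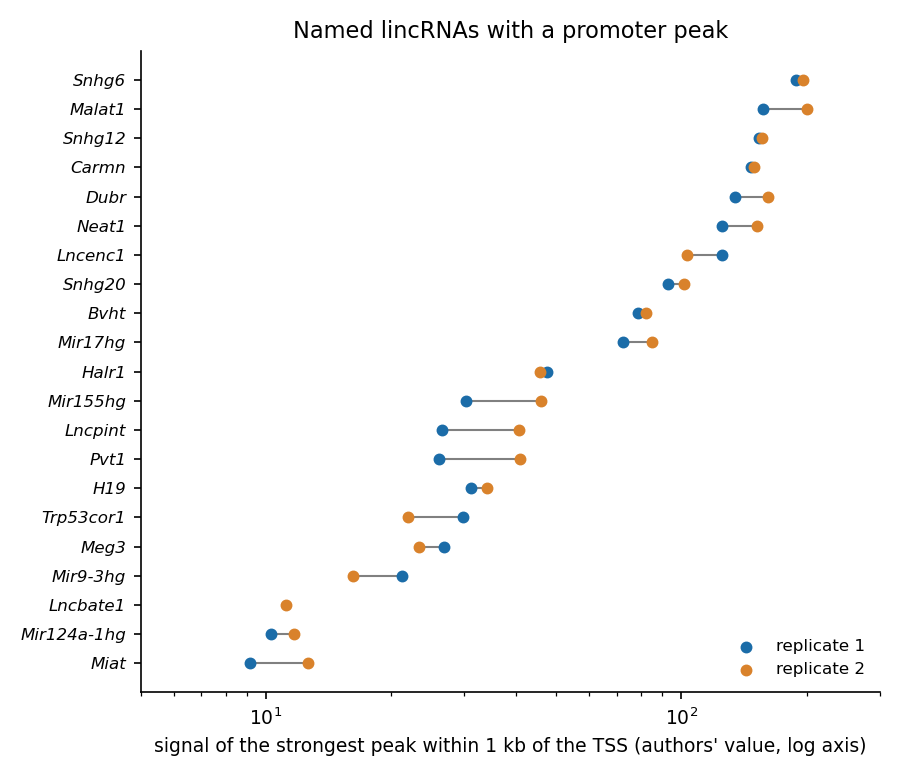
Promoter signal (the authors' value per peak, log axis) of the well-known lincRNAs in each replicate, sorted by mean signal. The values run between 188 and 196 for Snhg6 and 9.17 and 12.6 for Miat, Lncbate1 has a point for replicate 2 only, and the 4 genes with no peak in either replicate are not drawn.

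The nearest coding gene was open slightly more often beside open lincRNAs. It was open for 82.7% of 1448 open lincRNAs (80.7 to 84.6%), against 79.0% of the 3057 others (77.5 to 80.5%), a difference of 3.70 points. With each replicate taken alone the difference was 3.47 points in replicate 1 and 3.66 in replicate 2. The nearest gene was the one with the closest annotated TSS, but it was called open at its most 5′ TSS. These can be different promoters, as 78.8% of coding genes had more than 1 annotated TSS. When any annotated TSS of lincRNAs and coding genes counted, the difference was 3.33 points. Open lincRNAs lay closer to the nearest coding gene, at a median of 52936.5 bp against 84562 bp. At 5 to 20 kb from it the shares were 79.0% and 74.9%, and at 20 to 50 kb 84.9% and 75.9%. They were 82.8% and 80.1% at 50 to 200 kb, and 84.4% and 82.4% beyond 200 kb. The neighbours' own signals had medians of 94.7 and 100.6 in replicates 1 and 2 beside open lincRNAs, against 76.0 and 78.1 beside the others. Conversely, 33.1% of 3614 lincRNAs were open where the nearest coding gene was, against 28.1% of 891 where it was not. The lincRNAs share neighbours: their nearest coding genes were 2634, of which 78.5% were open. Open lincRNAs also lay among more peaks, with a median of 18 other peaks of replicate 1 and 17 of replicate 2 within 50 kb, against 9 and 8 for lincRNAs with a peak in neither replicate. The part of this local peak density in the open share was not tested.

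Of the 167 lincRNAs whose nearest coding gene was a regulator of kidney development, 60 were open, or 35.9% (28.7 to 43.7%), which is near the 32.1% of all lincRNAs. Of the 69 nearest to a regulator of another tissue, 16 were open, or 23.2% (13.9 to 34.9%). The intervals overlap, and the difference was not tested. With a window of 500 bp the shares were 27.5% and 13.04%, with 2 kb 47.3% and 37.7%, and with the upper 50% of peaks 22.2% and 8.70%. For all lincRNAs these settings gave 25.7%, 41.4% and 21.3%. The nearest coding gene was often not close. Its median distance was 112423 bp for the 167 and 66257 bp for the 69, against 71521 bp for all lincRNAs.

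Among lincRNAs whose nearest coding gene was a kidney regulator, the strongest promoters were mostly those of genes known by model names. Gm44946, printed above, had signals of 107 in replicate 1 and 127 in replicate 2 and lay 9427 bp from Nr2f2, a nuclear receptor gene of mesenchyme and veins, which had 71.9 and 56.9. Its peak lay 645.5 bp from the TSS and it was not open with a window of 500 bp. Gm29683, at 17385 bp from the same gene, had 52.4 and 55.3. Gm37896 had 84.1 and 86.5, above the 19.5 and 26.7 of its neighbour Esrrg, a nuclear receptor gene of oxidative metabolism 160914 bp away. Gm15221, with its CpG-free peak, had 102 and 74.5 at 46186 bp from Bmp4, a growth factor gene that limits ureteric branching, which had 54.9 and 55.7.

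The peak of 1600027J07Rik, with its TATA box, had 60.4 and 76.9, and the nearest coding gene was the mesenchymal cadherin gene Cdh11 at 561892 bp. Gm11680 had 65.4 and 57.2 at 674786 bp from Sox9, the transcription factor gene of ureteric tips. Tbx3os2, with its CTCF and AP-1 matches, had 52.1 and 56.0 at 10969 bp from the T-box gene Tbx3, which had 183 and 187.5. Gm26735, at 10665 bp from Sox4, had 56.1 and 48.3, and Gm28324, at 81459 bp from Foxf1, had 52.4 and 49.4. 4930594O21Rik had 46.9 and 49.9 at 26034 bp from Spry1, an inhibitor of receptor tyrosine kinase signalling in ureteric budding. Gm13470 and Gm29318 also belong to the 12 strongest of this group and are given below with the lincRNAs farthest from coding genes. No peak was found at 1700003P14Rik (114431 bp from Fgf10), 1700019E08Rik (579210 bp from Zeb2) or 1700061F12Rik (684157 bp from Gata3). The same held for 1700069P05Rik (50734 bp from Ret) and 1700112M02Rik (471826 bp from Irx1). They are the first 5 in alphabetical order of those nearest to a kidney regulator with a peak in neither replicate.

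Some coding genes had many open lincRNAs as neighbours, a count looked up after the values were seen. Ly86, a gene of innate immune signalling on chromosome 13, was nearest to 12 lincRNAs, of which 9 were open, with signals from 13.9 to 119 in replicate 1 and from 13.8 to 147 in replicate 2 at distances of 18742 to 195968 bp. Cd83, on the same chromosome, was nearest to 10, of which 7 were open, and Irs2, an insulin receptor substrate gene on chromosome 8, to 14, of which 7 were open. Over all 4505 lincRNAs the open share was 32.1%, and these are the 3 highest counts of open lincRNAs per coding gene.

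The open lincRNAs farthest from any coding gene had signals from low to middling. C130073E24Rik, at 2073046 bp from Tenm3, had 15.9 in replicate 1 and 15.4 in replicate 2. Gm28189, at 1424422 bp from Dsel, had 10.5 and 9.08, and Gm32647, at 962826 bp from Fam181b, had 10.2 and 12.9. Gm13470, at 1325315 bp from Zeb2, had 48.2 and 50.7, and Gm29318, at 1085955 bp from the nuclear receptor gene Nr2f1, had 49.5 and 44.4. With a window of 2 kb the mean signal was 98.7 for Gm13470 and 27.1 for C130073E24Rik, against 49.4 and 15.7 with 1 kb.

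The promoters that differed most between replicates did so in both directions. Replicate 1 was higher for Gm45889 (51.5 in replicate 1 and 11.6 in replicate 2, a centred log2 ratio of 2.17) and for Gm34256 (150.3 and 37.4, 2.02). Replicate 2 was higher for B930059L03Rik (11.2 in replicate 1 and 58.0 in replicate 2, -2.36), Gm35215 (8.94 and 22.9, -1.34) and Gm44238 (37.4 and 92.3, -1.29). In Gm45889 the strongest peaks lay 945.5 bp from the TSS in replicate 1 and 74.5 bp in replicate 2, in Gm34256 1064.5 and 484.5 bp, and in B930059L03Rik 243.5 and 823.5 bp. In these 3 genes the values compared come from different peaks of the window. The mean signals of all 5 changed by over 1.5 times with a window of 2 kb, to 136 for Gm45889, 164 for Gm34256, 219 for B930059L03Rik, 28.9 for Gm35215 and 163 for Gm44238. With 500 bp they were 13.75 for Gm45889, 37.8 for Gm34256 and 14.4 for Gm44238, and B930059L03Rik was not open.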

How the data were processed

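DNase-seq peaks of 2 newborn kidney libraries, 1 group, were analysed. The authors deposited 1 peak list per replicate in narrowPeak format, made per library from 36-nt reads on the minimal mm10 assembly, per the file headers. Aligner, peak caller, threshold and depth were not given in the sources used here. Each deposited signal is a multiple of 1/64, and any scaling for depth was not stated. The deposited −log10 p values were not used in any result. Without a depth the precision of a peak is unknown, and exact binomial (Clopper-Pearson, 95%) intervals cover counting error over genes only. The labels number the samples as replicates, and no test between groups exists, so no p-value was computed.

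Peaks were set against GENCODE M21 TSSs, with an overlap of at least 1 bp. TSS-free tiles were windows of 2001 bp with no TSS of any gene and over 5 kb from coding TSSs. Motifs were exact consensus matches, on either strand, in the middle 150 bp of the strongest peak of replicate 1. Repeat masking and sequences came from the reference genome GRCm38, which has the coordinates of mm10, and RefSeq genes from its RefSeq annotation. No autosomal peak passed the end of its chromosome.

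The members and lists were chosen with earlier results of these data known. Named genes were the 12 lincRNAs with the highest mean signal percentile over both replicates and all on the list of known lncRNAs. Further ones were the 12 strongest open and the first 5 closed ones whose nearest coding gene was a kidney regulator, at any distance. The last were the 5 with the largest centred log2 ratio between replicates and the 5 open ones farthest from coding TSSs. Sequences were to be those of the first 5 strongest and the first 5 nearest to kidney regulators. Of these, 6 are printed, with AY036118 and Gm42418 sharing 1. The peaks of Gm26917, Gm37896 and Gm11680, left out, had no motif match. Tbx3os2, Meg3 and Pvt1 were added after their values were seen, and each has a motif match. The alternatives tried were other windows, overlap rules, a stricter signal threshold, lists of equal length, a distance of 10 kb, any annotated TSS and each replicate alone. A further kidney identity gene and a motif are not reported here. The steps were tested on simulated data. The tools were pysam 0.24.0, pandas 2.3.3, scipy 1.17.1, numpy 2.4.6, matplotlib 3.10.9 and Python 3.11.15.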

Additional observations from a re-analysis of the deposited data

How the results depend on the processing

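The lower share of open lincRNA promoters than of coding promoters kept its direction under each alternative below. The share of open lincRNA promoters (32.1%) was 25.7% with a window of 500 bp, 41.4% with 2 kb, 31.3% with the peak centre in the window, 31.4% when the replicates' peaks had to overlap, 21.3% with the upper 50% of peaks, 32.0% with lists of equal length, 31.4% beyond 10 kb, 34.1% with any annotated TSS and 35.6 to 35.8% in each replicate alone. In the same order, without the equal lists, the difference from coding genes (-37.2 points) was -40.9, -31.3, -37.7, -37.5, -41.9, -37.9, -39.3 and, in each replicate alone, -35.0 to -34.6. The median signal (27.1, mean of the replicates) was 25.6 with 500 bp, 27.7 with overlapping peaks, 41.1 with the upper 50%, 26.4 beyond 10 kb and 23.6 to 24.1 in each replicate alone. The difference in open nearest genes (3.70 points) was 4.14, 5.53, 3.52, 3.34, 4.38, 3.51, 3.35 and 3.33 in the first order and 3.47 to 3.66 in each replicate alone. In the lowest CpG quintile (4.93 points) it was 2.31 with 500 bp, 8.34 with 2 kb, 2.91 with the upper 50%, 6.06 to 6.56 in each replicate alone, -0.990 with any annotated TSS and -0.327 without chemoreceptor genes, an alternative added after seeing the data, as were all those of this quintile. The cause of these shifts was not tested, apart from the last, which removes 1282 coding genes. Of the 52 named genes that were open with 1 kb, 7 had no peak of both replicates at 500 bp (Snhg20, Mir9-3hg, Gm26735, Miat, Gm28189, Gm44946 and B930059L03Rik), 8 moved by more than their spread between replicates at 500 bp, 9 at 2 kb and 2 with any annotated TSS. No paired analysis was possible because there is 1 group and no comparison between groups. Unknown depth limits what an absent peak shows: the promoter was not detected as open in that list.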

Other observations

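The X chromosome was left out of the lincRNA set above. Of its 90 lincRNA genes over 5 kb from coding TSSs, 14 were open (15.6%, 8.77 to 24.7%), against 445 of 948 X-linked coding genes (46.9%, 43.7 to 50.2%). The strongest was 9530027J09Rik with signals of 76.9 in replicate 1 and 86.0 in replicate 2. Jpx, an activator of Xist, had 75.3 in each replicate, and Ftx, another RNA of the X inactivation centre, had 38.9 and 57.3. Xist itself was open, with 38.8 and 45.0.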
